A study of Mus musculus with 6 samples.

Results

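Maoa, the gene of monoamine oxidase A, was examined in HL-1 cells together with 6 other genes of amine uptake and aldehyde removal: Maob, Aldh2, Aldh1a1, Aldh1b1, Slc22a3 and Slc29a4. Of these 7 genes, 6 had a row in the count table of 22913 genes, and 2 of them, Maoa and Aldh2, had enough counts to be among the 12827 genes tested. Slc22a3 had no row in the count table, so its level is not analysed here. Maoa was chosen by its measured values, since the comparison of these same libraries had called it higher in HSPA1A cells, and the other genes were added for their function with that result known. Every difference between the groups for these genes is therefore a description and no test of a new question. HL-1 cells are an immortal mouse line of atrial cardiomyocyte origin. In the HSPA1A group the cells carried an overexpression plasmid for HSPA1A, a stress-inducible HSP70 chaperone, which the labels describe as the human gene. The Ctrl group carried a control plasmid. Polyadenylated RNA was collected 48 h after lipid transfection, with 3 libraries in each group. All libraries came from this 1 line, and the sources used here do not give the share of cells that took up a plasmid.

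Monoamine oxidases are flavin enzymes of the outer mitochondrial membrane that oxidise noradrenaline, serotonin and dopamine to aldehydes, with ammonia and hydrogen peroxide as further products. Monoamine oxidase A prefers serotonin and noradrenaline and is known in heart muscle cells as a source of hydrogen peroxide, while monoamine oxidase B prefers phenylethylamine. Aldehyde dehydrogenases then oxidise the aldehydes to acids, and the transporters encoded by Slc22a3 and Slc29a4 carry monoamines into cells outside the nervous system.

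Maoa (ENSMUSG00000025037.6) lies on chromosome X at 16619698 to 16687818, plus strand, in the GENCODE M21 annotation of GRCm38, with no overlapping gene. Maob (ENSMUSG00000040147.12) lies beside it on the minus strand at 16709282 to 16817366, 21.5 kb beyond the end of Maoa. The stretch around the cysteine codon to which the flavin cofactor is attached is shown for both genes because both enzymes bind their cofactor there and because reads of similar genes can be exchanged. The sequences come from the GENCODE M21 transcripts, with the cysteine codon in capitals, which is codon 406 of 526 in Maoa and codon 397 of 520 in Maob.
Maoa: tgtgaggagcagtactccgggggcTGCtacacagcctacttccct
Maob: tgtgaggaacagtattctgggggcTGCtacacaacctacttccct

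These 45 bases differed at 4 positions. Over the whole aligned coding sequence the genes shared 71.2% of bases, and the longest run of identical bases between their transcripts was 35, which is shorter than the sequenced reads that the labels describe. Whether reads were exchanged between the 2 genes was not tested.

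The 250 bases before the start of Maoa are shown because Maoa is the member with the called difference. They come from RefSeq (GRCm38.p6, chrX:16619448-16619697, plus strand), with the GC box in capitals. The GC box, GGGCGG or CCGCCC on the other strand, is the motif bound by the Sp1 family, which is known to act on the human MAOA promoter.
Maoa promoter: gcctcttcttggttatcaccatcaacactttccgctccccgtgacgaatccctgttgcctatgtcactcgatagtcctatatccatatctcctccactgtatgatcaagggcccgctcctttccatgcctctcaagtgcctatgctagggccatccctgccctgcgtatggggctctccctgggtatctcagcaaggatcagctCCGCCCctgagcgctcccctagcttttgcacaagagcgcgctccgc

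The window of 250 bases before and 50 after the start held 2 GC boxes in Maoa, 1 of them the box shown and the other after the start. At least 1 such box stood in 35.7% of the 32851 RefSeq promoter windows of this length, and at least 2 stood in 19.5%. Of the 7 genes, 5 had a promoter sequence in this table, while Maob and Aldh2 had none. Among the 5, Slc29a4 had 9 boxes, with overlapping matches counted, Aldh1b1 had 1, and Slc22a3 and both windows of Aldh1a1 had 0. Slc29a4 was near 0 in these cells, and the part of GC boxes in the level of any of these genes was not tested.

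The libraries held between 23849656 and 26897086 counts. Mouse Hspa1a had between 11 and 20 reads in HSPA1A libraries and between 10 and 17 reads in Ctrl libraries, and since the plasmid is described as carrying the human gene, this mouse row does not check the labels. HSPA1A replicate 2 stood apart from the other HSPA1A libraries on the first principal component, which held 34.3% of the variance. It lay at 15.1, on the side of Ctrl replicates 1 to 3 at 8.27, 6.58 and 4.33. HSPA1A replicates 1 and 3 lay on the other side, at -15.9 and -18.3. The noncoding transcript Yam1 took 2.70%, 1.58% and 2.53% of counts in HSPA1A replicates 1 to 3, against 1.86%, 1.18% and 1.23% in Ctrl replicates 1 to 3. The labelled cell type was only partly borne out by its markers. Des, Tnnt2, Gata4 and Nkx2-5 averaged 175 ± 7.3, 30.4 ± 9.3, 8.18 ± 0.93 and 2.06 ± 0.29 FPKM in HSPA1A libraries, and 201 ± 7.2, 29.3 ± 3.0, 8.38 ± 0.37 and 2.33 ± 0.20 FPKM in Ctrl libraries (SD, n = 3 each; FPKM is the deposited level per length and depth). Over the 6 libraries, however, the sarcomere and calcium release genes Actc1, Tnni3, Ryr2 and Actn2 had 3, 7, 11 and 1 reads. The fibroblast genes Col3a1 and Col1a2 averaged 74.2 ± 14 and 49.8 ± 2.3 FPKM in HSPA1A libraries, against 78.3 ± 0.9 and 53.7 ± 0.5 FPKM in Ctrl libraries. The summed levels of the leukocyte and macrophage, smooth muscle, and sympathetic or chromaffin marker lists were 10.7 to 17.2, 37.6 to 55.5 and 36.5 to 52.3 FPKM in HSPA1A libraries, against 11.6 to 14.4, 47.2 to 51.6 and 47.6 to 52.2 FPKM in Ctrl libraries, and Ptprc, a defining leukocyte gene, had 2 reads in all. Of the 6 sympathetic or chromaffin markers with a row, only 1 averaged at least 1 FPKM, so that sum rests on 1 gene. Dbh and Slc18a2, of the same list, had 6 and 3 reads over all libraries. The summed level of the 6 endothelial markers with a row was 0.14 to 0.20 FPKM in HSPA1A libraries and 0.10 to 0.17 FPKM in Ctrl libraries. The part of other cell types in the results was not tested. In such bulk libraries a change in the number of cells of a kind and a change in RNA per cell cannot be told apart.

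Maoa was higher in HSPA1A than in Ctrl cells by 1.29 times. Its level was 113, 116 and 116 CPM in HSPA1A replicates 1 to 3, against 89.0, 90.3 and 87.5 CPM in Ctrl replicates 1 to 3 (CPM is the read count relative to the library total, scaled by TMM). The groups did not overlap, and the lowest HSPA1A library stood clear of the highest Ctrl library. The read counts behind these levels were 2651, 3147 and 2797 in HSPA1A libraries and 2370, 2251 and 2311 in Ctrl libraries. The means were 115 ± 1.6 CPM in HSPA1A libraries and 88.9 ± 1.4 CPM in Ctrl libraries (SD, n = 3 each), and the log2 fold change was 0.37 ± 0.05 (SE), with a 95% interval from 0.27 to 0.48. Against the Ctrl mean, the single HSPA1A libraries were 1.27, 1.31 and 1.30 times higher. HSPA1A replicate 2, which lay on the Ctrl side of the first principal component, had a Maoa level like those of the other HSPA1A libraries. The log2 fold change without this library was 0.37.

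The spread of Maoa between replicates was small. Its coefficient of variation was 1.42% in HSPA1A and 1.59% in Ctrl libraries, below the 1.87% and 2.08% that counting error alone gives at these read numbers. The SD over the 3 libraries thus understates the error of a single library, and the SE above rests on a spread shared across genes. The Yam1 share was above every Ctrl library in HSPA1A replicates 1 and 3 and between the Ctrl libraries in HSPA1A replicate 2, and its part in the Maoa difference was not tested. In all, 397 tested genes had a larger positive log2 fold change than Maoa, and 37 of these averaged at least 5 CPM. Over all 12827 genes, the quasi-likelihood test of edgeR at a Benjamini-Hochberg adjusted p of 0.05 called 3 genes (0.0234%) higher, and Maoa had the smallest p among the genes with a positive change. The call ended when any 1 of the Ctrl libraries was left out, with log2 fold changes from 0.36 to 0.38, and with the deposited FPKM on a log2 scale, where it was 0.30 or 0.31.

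**Figure D1:**
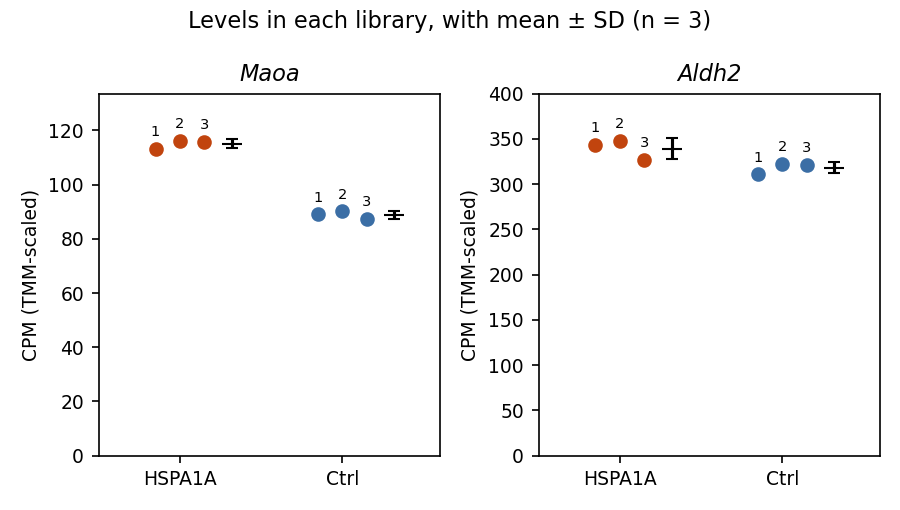
CPM of Maoa and Aldh2 in each library (points, numbered by replicate), with the mean ± SD of each group of 3 beside them; every axis starts at 0. The 3 HSPA1A libraries sit at 113 to 116 CPM for Maoa, above the 3 Ctrl libraries at 87.5 to 90.3 CPM, while for Aldh2 they sit at 327 to 348 CPM, against 311 to 322 CPM in the Ctrl libraries.

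**Figure D2:**
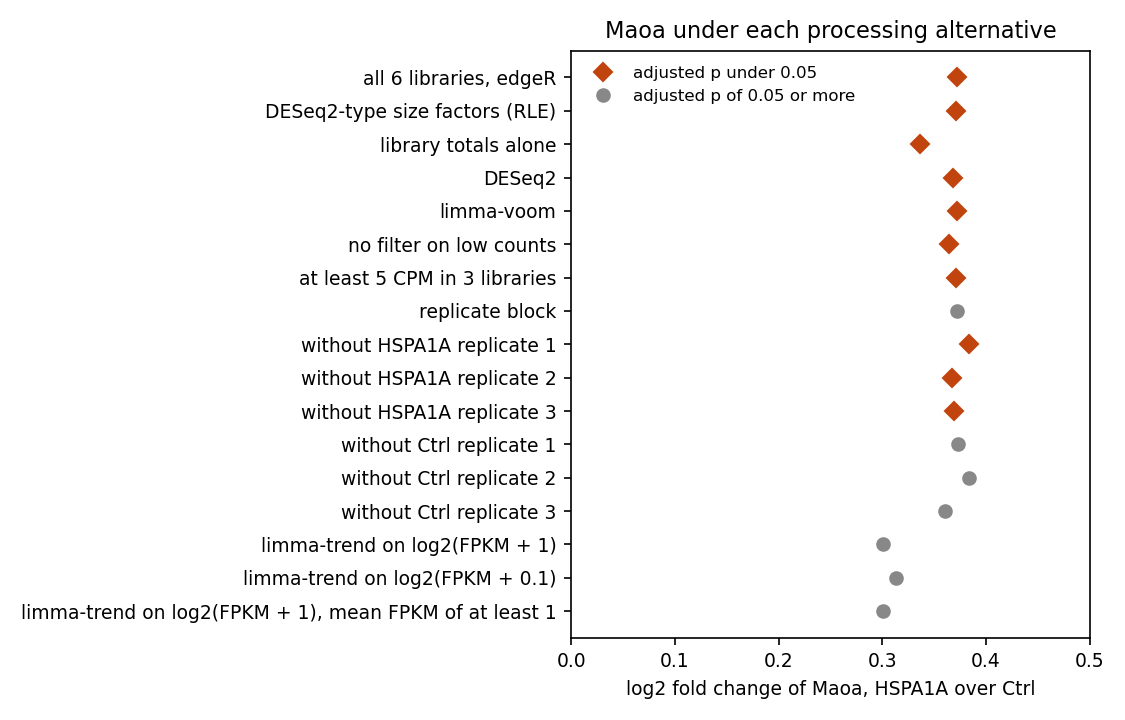
Log2 fold change of Maoa, HSPA1A over Ctrl, under each way of processing the data, with diamonds where the adjusted p was under 0.05 and circles where it was not. The values lie between 0.30 and 0.38, and 7 of the 16 alternatives fall on the other side of the threshold.

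Maob, the gene of the sister enzyme, was at or next to 0. It had 0 reads in each HSPA1A library, against 1, 0 and 0 reads in Ctrl replicates 1 to 3. A count of 0 allows up to 3 reads, or 0.112 to 0.126 CPM in single HSPA1A libraries, an allowance for counting error only. No group difference could be read at this depth. Over all 6 libraries, Maoa had 15527 reads and Maob had 1.

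Aldh2 (ENSMUSG00000029455.12, chromosome 5 at 121566027 to 121593824, minus strand) encodes the mitochondrial aldehyde dehydrogenase that clears acetaldehyde and aldehydes made by monoamine oxidases. Its level was 343, 348 and 327 CPM in HSPA1A replicates 1 to 3, against 311, 322 and 321 CPM in Ctrl replicates 1 to 3. The groups did not overlap in CPM, but the gap between HSPA1A replicate 3 and Ctrl replicate 2 was smaller than the spread within either group. The means were 339 ± 11 CPM in HSPA1A libraries and 318 ± 6.3 CPM in Ctrl libraries (SD, n = 3 each), with a log2 fold change of 0.09 ± 0.05 (SE) and a 95% interval from -0.02 to 0.20. Aldh2 was not called (adjusted p = 0.640, edgeR's quasi-likelihood test). In deposited FPKM its groups overlapped, at 70.2 to 78.6 in HSPA1A and 70.0 to 74.0 in Ctrl libraries. Among all tested genes, 7.3% lay with every HSPA1A library above every Ctrl library in CPM, as both tested members did. Aldh2 overlaps the annotated gene Gm42879 on the other strand, and the sources used here do not say whether reads were counted by strand.

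The other members were near the lower end of detection. Aldh1a1 (ENSMUSG00000053279.6, chromosome 19 at 20492715 to 20643465, plus strand), whose cytosolic enzyme oxidises retinal and is also able to oxidise the dopamine aldehyde, had 6, 8 and 5 reads in HSPA1A replicates 1 to 3, against 6, 10 and 8 reads in Ctrl replicates 1 to 3. The groups overlapped. Aldh1b1 (ENSMUSG00000035561.5, chromosome 4 at 45799022 to 45804604, plus strand), a mitochondrial relative of Aldh2, had 0, 1 and 1 reads in HSPA1A libraries and 1 read in each Ctrl library. Slc29a4 (ENSMUSG00000050822.9, chromosome 5 at 142692512 to 142722490, plus strand), the plasma membrane monoamine transporter gene, had 1, 2 and 2 reads in HSPA1A libraries, against 0, 1 and 1 reads in Ctrl libraries. These counts lie within the 3 reads that a count of 0 allows, so Aldh1b1 and Slc29a4 give no comparison.

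Levels of different genes were compared per length. In deposited FPKM, Aldh2 stood first, at 74.2 ± 4.2 in HSPA1A and 72.4 ± 2.1 in Ctrl libraries, and Maoa second, at 25.1 ± 1.0 in HSPA1A and 20.2 ± 0.4 in Ctrl libraries (SD, n = 3 each). The ratio of Aldh2 to Maoa in FPKM was 2.83 to 3.04 in HSPA1A libraries and 3.50 to 3.68 in Ctrl libraries. Aldh1a1 followed with 0.11 ± 0.02 FPKM in HSPA1A and 0.14 ± 0.05 FPKM in Ctrl libraries. Aldh1b1, Slc29a4 and Maob lay at 0.03 FPKM or less in every library and could not be ordered among themselves, since 1 read decides their values. The gap between Maoa and Aldh1a1 far exceeded the spread between libraries.

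**Figure D3:**
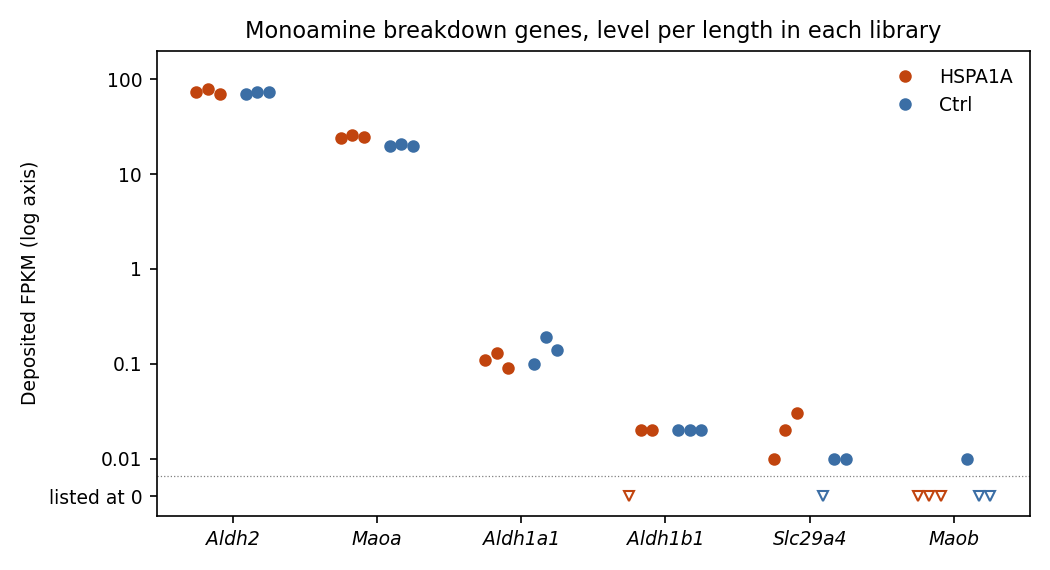
Deposited FPKM of the 6 members with a row, on a log axis, with 3 HSPA1A libraries left of 3 Ctrl libraries for each gene and open triangles for libraries listed at 0. Aldh2 lies between 70.0 and 78.6 FPKM and Maoa between 19.9 and 26.2 FPKM, while the others lie at 0.19 FPKM or less.

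The aldehyde dehydrogenase family shows which enzymes were expressed beside Aldh2. Of 18 family genes with a row, 11 averaged at least 1 FPKM. Over the 6 libraries the mean was 138 FPKM for Aldh1l2, the mitochondrial 10-formyltetrahydrofolate dehydrogenase, 74.6 FPKM for Aldh18a1, which acts in proline synthesis, and 73.3 FPKM for Aldh2. Aldh18a1 and Aldh2 did not differ beyond their spread over libraries, at 68.3 to 78.2 FPKM and 70.0 to 78.6 FPKM. Aldh9a1, which oxidises aminoaldehydes, averaged 21.1 ± 1.3 FPKM in HSPA1A and 23.3 ± 0.1 FPKM in Ctrl libraries. Aldh3a1, an enzyme for medium-chain and aromatic aldehydes, varied most visibly among the abundant genes. It stood at 61.0, 91.6 and 40.1 FPKM in HSPA1A replicates 1 to 3, against 47.1, 49.0 and 50.4 FPKM in Ctrl replicates 1 to 3. HSPA1A replicates 1 and 2 lay above the Ctrl libraries and replicate 3 below them. Of the 13 family genes tested, edgeR and DESeq2 each called 0, and the unadjusted p was under 0.05 for 0. The median log2 fold change was -0.08, with 4 values positive and 9 negative, where over all tested genes the median was 0.0029 with 6544 of 12827 positive. Aldh16a1 and Aldh3a1 had the smallest p, with log2 fold changes of -0.20 ± 0.09 and 0.44 ± 0.20 (SE), and neither passed the test (adjusted p = 0.580 and 0.591, edgeR). Aldh3a1 did pass in edgeR when no low-count filter was applied, in a fit that called 205 of 22913 genes.

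**Figure D4:**
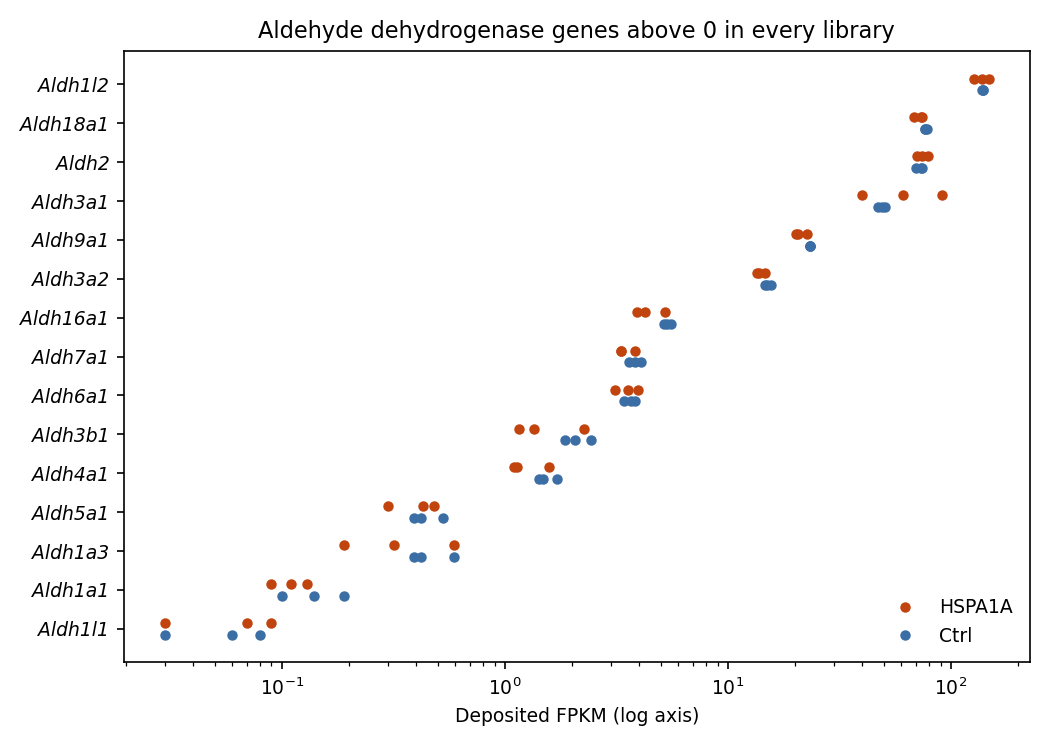
Deposited FPKM of the 15 aldehyde dehydrogenase genes that were above 0 in every library, on a log axis, with 3 HSPA1A libraries drawn above 3 Ctrl libraries for each gene. Aldh2 follows Aldh1l2 and Aldh18a1 in the order of means, and Aldh3a1 is the abundant gene whose HSPA1A libraries spread widest, from 40.1 to 91.6 FPKM.

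Other genes of monoamine breakdown were read from a list of 19 enzymes, of which 16 had a row and 8 were tested. Of these 8, Maoa alone was called, against 23 of 12827 genes (0.179%) over the whole table, in the comparison that chose Maoa. Nat2, an arylamine acetyltransferase gene with 473 reads in all, had a log2 fold change of 0.40 and was not called. The median of the 8 log2 fold changes was -0.0045. Hnmt, which inactivates histamine by methylation, averaged 0.54 ± 0.15 FPKM in HSPA1A and 0.71 ± 0.12 FPKM in Ctrl libraries. The amine oxidase genes Aoc1 and Aoc3 had 1 and 2 reads over all libraries.

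Several genes that make, store or carry monoamines had few reads. The noradrenaline-forming enzyme gene Dbh had 3 reads over the HSPA1A and 3 over the Ctrl libraries, Ddc, which forms dopamine and serotonin, had 5 and 2, and the vesicle transporter gene Slc18a2 had 0 and 3. The neuronal transporter genes Slc6a3 and Slc6a4 had 2 reads and 1 read over all 6 libraries. Slc6a2, the noradrenaline transporter gene, had 0, 8 and 1 reads in HSPA1A replicates 1 to 3 and 0 in each Ctrl library, so nearly all its reads came from HSPA1A replicate 2. Of the transporter list, the carnitine and cation transporter genes Slc22a4 and Slc22a5 alone were tested. Their levels were 7.40 ± 1.5 and 8.93 ± 0.91 CPM in HSPA1A libraries, against 7.98 ± 0.75 and 9.03 ± 0.62 CPM in Ctrl libraries (SD, n = 3 each), and neither was called by edgeR or DESeq2 or had an unadjusted p below 0.05.

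The synthesis and storage list had 9 tested genes, among which the genes of tetrahydrobiopterin, the cofactor of the aromatic amino acid hydroxylases, were expressed. Gch1 and Pts, the first enzymes of that route, averaged 103 ± 3.5 and 27.9 ± 0.9 CPM in HSPA1A libraries, against 96.9 ± 2.4 and 25.1 ± 1.2 CPM in Ctrl libraries. Pcbd2, which recycles the cofactor, stood at 17.2 ± 0.7 CPM in HSPA1A libraries and 14.3 ± 0.6 CPM in Ctrl libraries (SD, n = 3 each), with a log2 fold change of 0.27 ± 0.08 (SE). Hdc, the histidine decarboxylase gene of this list, averaged 9.45 ± 2.5 CPM in HSPA1A libraries and 11.4 ± 1.4 CPM in Ctrl libraries. Neither edgeR nor DESeq2 called any of the 9, while 2, Pcbd2 and Pts, had an unadjusted p below 0.05, as did 1102 of all 12827 tested genes (8.59%). Of the amine receptor genes 4 were tested, and edgeR and DESeq2 called 0, with an unadjusted p below 0.05 for 0. The alpha-1B adrenergic receptor gene Adra1b averaged 6.23 ± 0.86 CPM in HSPA1A libraries and 6.50 ± 1.1 CPM in Ctrl libraries (SD, n = 3 each), while Adrb1, the main beta receptor gene of heart muscle, had 12 reads over the HSPA1A and 24 over the Ctrl libraries.

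Aldehydes can also be reduced to alcohols, and the 16 tested aldehyde reductase and alcohol dehydrogenase genes had a median log2 fold change of 0.15, with 15 positive. Neither edgeR nor DESeq2 called any, while 3 of 16 had an unadjusted p under 0.05, against 8.59% of all tested genes. The aldose reductase relatives Akr1b7 and Akr1b10 had the smallest p. Akr1b7 stood at 32.7, 23.3 and 40.0 CPM in HSPA1A replicates 1 to 3, against 22.6, 24.3 and 24.2 CPM in Ctrl replicates 1 to 3, so HSPA1A replicate 2 lay among the Ctrl libraries. When no low-count filter was applied, Akr1b7 passed in edgeR, in the fit that called 205 of 22913 genes. Akr1b10 averaged 19.9 ± 0.5 CPM in HSPA1A libraries and 17.5 ± 1.2 CPM in Ctrl libraries (SD, n = 3 each). The most abundant members, Akr1a1 and Akr1b3, encode aldehyde reductase and aldose reductase and averaged 303 ± 14 and 129 ± 9.6 FPKM in HSPA1A libraries, against 306 ± 10 and 122 ± 12 FPKM in Ctrl libraries.

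The genes that remove hydrogen peroxide, the by-product of monoamine oxidases, had a median log2 fold change of 0.07 over 17 tested genes, with 13 positive. None was called by edgeR, and 3 of 17 had an unadjusted p under 0.05, against 8.59% of all tested genes. Gpx8, a peroxidase of the endoplasmic reticulum, stood at 120, 126 and 127 CPM in HSPA1A replicates 1 to 3, against 107, 102 and 107 CPM in Ctrl replicates 1 to 3. The peroxiredoxin gene Prdx1 stood at 811, 877 and 806 CPM in HSPA1A replicates 1 to 3, against 726, 700 and 725 CPM in Ctrl replicates 1 to 3. Neither gene's groups overlapped, which held for 3 of the 17 genes in this list. Over all tested genes, 7.3% had every HSPA1A library above every Ctrl library in CPM. The log2 fold changes of Gpx8 and Prdx1 were 0.24 ± 0.05 and 0.21 ± 0.05 (SE), with edgeR's adjusted p at 0.155 and 0.321. Both passed in DESeq2, which called 0.443% of its genes. Gpx8 also passed in edgeR when no low-count filter was applied, in the fit that called 205 of 22913 genes. Cat, the catalase gene, averaged 167 ± 34 CPM in HSPA1A libraries and 159 ± 12 CPM in Ctrl libraries.

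Factors known to act on the human MAOA promoter or on monoamine oxidase A expression were also counted. Of 15 such genes tested, edgeR and DESeq2 called 0 and the unadjusted p was below 0.05 for 0, with a median log2 fold change of -0.02. Sp1 averaged 90.7 ± 1.9 CPM in HSPA1A libraries and 92.9 ± 3.8 CPM in Ctrl libraries, Klf11 averaged 9.28 ± 0.91 and 10.0 ± 0.4 CPM in these groups, and the repressor gene Cdca7l averaged 20.9 ± 0.2 and 21.0 ± 0.5 CPM (SD, n = 3 each). The smallest p belonged to Hey2, which had 27 reads over the HSPA1A and 44 over the Ctrl libraries. The counts do not show the activity of these factors.

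The flavin cofactor genes and the other genes of the outer mitochondrial membrane were read in the same way. Of 4 flavin genes tested, edgeR and DESeq2 called 0. The unadjusted p was below 0.05 for 1 of the 4, where 8.59% of all tested genes had such a p: the riboflavin transporter gene Slc52a2 at 11.8 ± 0.5 CPM in HSPA1A libraries and 13.9 ± 1.2 CPM in Ctrl libraries. Of 36 outer membrane genes tested, edgeR and DESeq2 called 0 and the unadjusted p was below 0.05 for 4, a share near the 8.59% of all tested genes, the log2 fold changes having a median of 0.05 and 28 being positive. The import complex gene Tomm7 averaged 73.7 ± 5.6 CPM in HSPA1A libraries and 64.8 ± 1.8 CPM in Ctrl libraries (SD, n = 3 each). Fundc2 averaged 72.4 ± 4.1 CPM and 64.8 ± 2.2 CPM in the same order (SD, n = 3 each). The channel gene Vdac1 differed little, at 504 ± 19 CPM in HSPA1A libraries and 498 ± 19 CPM in Ctrl libraries.

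**Figure D5:**
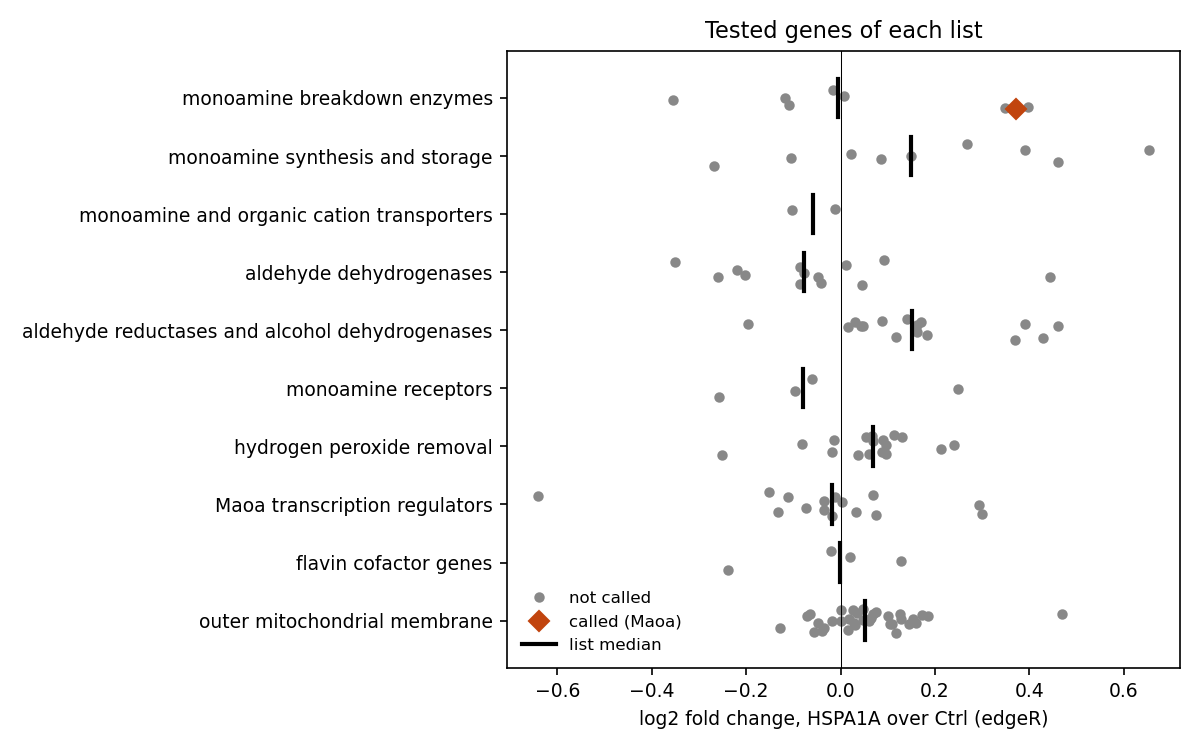
Log2 fold change, HSPA1A over Ctrl, of every tested gene in the 10 lists, with the list's median as a black bar, called genes as orange diamonds and the others as grey points. Maoa, at 0.37, is the 1 called gene of 124, where 0.179% of all tested genes were called. The medians lie between -0.08 and 0.15.

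Of the 124 tested genes in these lists, 1 was called with all 6 libraries, namely Maoa. Without HSPA1A replicate 2, 12 were called higher and 4 lower, or 16 of 124, where that fit called 10.2% of all its genes. The higher ones were Maoa, Pcbd2, Akr1b7, Prdx1, Gpx8, Txn2 and 6 outer membrane genes (Tomm5, Tomm7, Tomm20, Fundc2, Acsl1 and Cisd1), and the lower ones were Hdc, Aldh16a1, Aldh3b1 and Glrx. Beside Maoa, edgeR called none of these with all libraries and the low-count filter; Akr1b7 and Gpx8 passed without that filter.

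Of the chromosomal neighbours of Maoa, 1 had enough reads to be tested. Within 1 Mb of Maoa and Maob the annotation holds 6 protein-coding genes. Cypt1, Ndp and Efhc2 had 1, 8 and 6 reads over all libraries. Fundc1, a mitophagy receptor gene that starts 936866 bases beyond the start of Maoa, stood at 31.2 ± 0.4 CPM in HSPA1A libraries and 30.7 ± 1.1 CPM in Ctrl libraries (SD, n = 3 each), with a log2 fold change of 0.03 ± 0.06 (SE), and was not called. Of the 428 tested genes on chromosome X, 1 was called, namely Maoa, which this same comparison chose. Over all tested genes 23 of 12827 (0.179%) were called. The median log2 fold change of the 428 genes was 0.02.

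The genes whose levels over the 6 libraries were most like those of Maoa were found by the root mean square difference between log2 CPM profiles, each centred on its own mean, among 9716 other genes averaging at least 5 CPM. They were AU041133, Fam212b, Apol9b, Creg1 and Prss23, with differences of 0.054, 0.057, 0.064, 0.068 and 0.069, where the median over all compared genes was 0.204. Apol9b stood at 225, 225 and 221 CPM in HSPA1A replicates 1 to 3, against 161, 189 and 173 CPM in Ctrl replicates 1 to 3. Creg1 averaged 75.9 ± 2.6 CPM in HSPA1A libraries and 63.3 ± 1.1 CPM in Ctrl libraries, and Prss23 averaged 116 ± 7.5 and 95.3 ± 3.0 CPM in these groups (SD, n = 3 each). All 5 had higher means in HSPA1A libraries, which the choice of Maoa by its group difference fixes, and none of the 5 was called.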

How the data were processed

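The authors deposited whole read counts per gene and, for 22833 of the 22913 genes, FPKM rounded to 2 decimals, per the file headers and the values; 0 columns were unused. Per the submitters' processing notes, the tools were bcl2fastq, TopHat2 and edgeR and the build GRCm38; the sources used here do not give the read counter, strand use or gene annotation. The library kit was stranded, per the labels' protocols. The deposited counts were normalised by TMM and tested with edgeR 4.0.16 (R 4.3.3; glmQLFit, glmQLFTest) after filterByExpr (minimum count 10, total 15), over all genes with Benjamini-Hochberg adjustment at 0.05, without covariates. On simulated data the fit called 75.3% of genes changed by 1.5 times and 0.0554% of unchanged genes. Changes smaller than 1.5 times were not simulated. Alternatives used DESeq2 1.42.0 and limma 3.58.1. The members and lists were chosen with earlier results of these data known. Named were all members, called genes of each list or else up to 2 by smallest p, the 5 genes most like Maoa, its neighbours within 1 Mb and up to 4 abundant markers a list; every gene named beyond these was chosen after its values were seen. GENCODE M21 held 22729 of the gene identifiers. The labels do not say that replicates were separate cultures, so a p-value here reflects only how these libraries vary, possibly for technical reasons. Figures were drawn with matplotlib 3.10.9.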

Additional observations from a re-analysis of the deposited data

How the results depend on the processing

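The log2 fold change of Maoa was positive in all 16 alternatives, from 0.30 to 0.38. Its call ended with the replicate block (0.37) and with limma on log2(FPKM + 1) (0.30), log2(FPKM + 0.1) (0.31) or FPKM of at least 1 (0.30). Leaving out 1 library gave 0.36 to 0.38, with the call ended without any 1 of the Ctrl libraries. The replicate numbers pair nothing in the data, since deviations of same-numbered libraries correlated at -0.10, -0.0015 and 0.085 and HSPA1A replicate 1 was more like Ctrl replicate 2 than Ctrl replicate 1; the block left 16 genes called. Genes called numbered 23, against 68 with DESeq2, 205 with no filter on low counts, 15 with either FPKM fit at a pseudocount of 1, and 10 to 1323 on leaving out 1 library, the highest without HSPA1A replicate 2. In the 10 lists, 1 gene was called, against 3 with DESeq2, 4 with no filter, 0 with the replicate block, 0 in each FPKM fit, and 0 to 16 on leaving out 1 library. The Aldh2 to Maoa ratio was 3.24 in FPKM and 2.62 as CPM per kilobase of annotated exons, so the order held and the size did not; the cause was not tested. Slc22a4 and Slc22a5 changed sign on leaving out 1 library, from -0.28 to 0.024 and from -0.096 to 0.051. The 5 genes most like Maoa were the same on log2(FPKM + 0.1). At this depth Maob, Aldh1b1 and Slc29a4, with 0 to 2 reads a library, allow no comparison.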

Other observations

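Some related genes with few reads had unequal counts, and they were singled out after their values were seen. Aldh8a1, an aldehyde dehydrogenase of the kynurenine route, had 3, 3 and 4 reads in HSPA1A replicates 1 to 3, against 0, 1 and 0 reads in Ctrl replicates 1 to 3. The serotonin receptor gene Htr1d had 0, 4 and 2 reads in HSPA1A replicates 1 to 3, against 7, 16 and 5 reads in Ctrl replicates 1 to 3. Htr2b, another serotonin receptor gene, had 0, 1 and 0 reads in HSPA1A replicates 1 to 3, against 4, 2 and 5 reads in Ctrl replicates 1 to 3. All of them were below the filter on low counts, and neither DESeq2 nor edgeR with no filter called them.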
